A study of Mus musculus with 4 samples.

Results

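Endothelial cells line the blood vessels of the nerve, and 10 genes that mark their identity were followed through RNA sequencing of sciatic nerve from mice of 4 genotypes. The members were chosen by symbol from a list of pan-endothelial surface and regulatory genes: Cdh5, Pecam1, Esam, Tie1, Robo4, Emcn, Vwf, Mmrn2, Egfl7 and Sox17. All 10 were found among the 24062 gene symbols of the count table, and all 10 passed the filter of 1 CPM (counts scaled to library size) in at least 1 library, as did 14700 genes in all. Each genotype was represented by 1 library from whole sciatic nerve of 4-month-old C57BL/6 mice. The library called WT came from C57BL/6 mice with no mutation named. PKO nerves were P2RY14-/-, without the receptor for UDP-sugars. NF1 nerves were Nf1fl/fl; Dhh Cre, so that the gene for neurofibromin, a brake on RAS, is deleted where the Dhh driver has been active, a driver used to target Schwann cells. In PKO-NF1, P2RY14-/- was combined with Nf1fl/f and Dhh Cre. None of the 4 libraries used here carried Dhh Cre alone or floxed Nf1 without Cre. Pooling of animals and their number are not stated in the sources used here, and the label of the NF1 library marks it as a repeat.

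Endothelial cells hold each other through adherens junctions built on VE-cadherin and through homophilic adhesion molecules, and in peripheral nerve they form, with the perineurium, the blood-nerve barrier. Transcription factors of the ETS and SOX families switch on endothelial genes, and receptors such as TIE1 and ROBO4 are thought to stabilise the quiescent vessel. Von Willebrand factor is stored in endothelial granules and released into blood, whereas EGFL7 and multimerin 2 are deposited around the vessel. Because the 10 genes share a cell type, a change in vessel content alone would move them together, so the spread of their ratios is given beside each median.

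Total counts were between 14111201 and 20362685 per library, and a count of 0 would allow up to 3 counts, or at most 0.183 CPM. The lowest count of any of the 10 genes was 173, for Mmrn2 in NF1. With 1 library per genotype there is no replicate check: each ratio compares 2 libraries, and its 95% interval (exact conditional, Clopper-Pearson) covers counting error only, since without molecular identifiers PCR reads do not each stand for a molecule. P2ry14 stood at 37.6 CPM (WT) and 10.9 CPM (PKO), against 65.3 in NF1 and 10.6 in PKO-NF1. Nf1 stood at 72.8 CPM (WT) and 41.0 CPM (PKO), against 63.4 in NF1 and 20.5 in PKO-NF1, so the whole-gene count set the library labelled NF1 only 1.15-fold below WT (interval 1.06 to 1.24) and above the library labelled PKO. Below, Nf1-intact and Nf1-deleted name the genotypes on the labels, which the order of the Nf1 counts does not follow, and the count over the whole gene does not single out the floxed part. The libraries also differed in other tissue and in sex-linked RNA. Of all counts, 7.45% in NF1 came from a list of 28 skeletal muscle genes, against between 0.0264% and 0.162% in the others. A list of 85 ribosomal protein genes took from 4.06% (WT) to 15.7% (PKO), and Xist ranged from 9 counts in PKO-NF1 to 39699 in NF1.

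All 8 endothelial marker genes outside the 10 (Erg, Fli1, Kdr, Flt1, Tek, Icam2, Cldn5 and Cd34) were detected in every library, from 3.25 CPM for Erg in NF1 to 667 CPM for Cd34 in PKO-NF1, a gene that fibroblasts express as well. The myelin gene Mbp, a Schwann cell marker of nerve, was at 9286 CPM in WT.

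RefSeq start windows (GRCm38.p6; 250 bases before the annotated start) were given for 4 of the 10 genes: Tie1, Robo4, Emcn and Egfl7. The Tie1 window lay mostly inside an exon of the GENCODE M21 annotation and is not printed. The other 3 lay mostly outside such exons and are shown for that reason, whatever the ratios of their genes. Each run is written 5′ to 3′ on the plus strand up to the first GENCODE exon base. Capitals mark matches, on either strand, to 4 motifs. One ETS family motif searched was GGAAGT. The other ETS family motif was ACAGGAA, and the ETS matches can overlap each other. The SOX family was searched as AACAAT. The TATA box was searched as TATAAA. The Robo4 run covers chr9:37401722-37401896, the Emcn run chr3:137340828-137341066 and the Egfl7 run chr2:26580833-26581055, the most upstream of 3 RefSeq starts, which lies within an intron of a longer Egfl7 transcript.
Robo4: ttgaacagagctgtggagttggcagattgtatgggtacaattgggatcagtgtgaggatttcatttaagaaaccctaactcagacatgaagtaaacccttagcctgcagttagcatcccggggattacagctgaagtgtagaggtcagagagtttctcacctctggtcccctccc
Emcn: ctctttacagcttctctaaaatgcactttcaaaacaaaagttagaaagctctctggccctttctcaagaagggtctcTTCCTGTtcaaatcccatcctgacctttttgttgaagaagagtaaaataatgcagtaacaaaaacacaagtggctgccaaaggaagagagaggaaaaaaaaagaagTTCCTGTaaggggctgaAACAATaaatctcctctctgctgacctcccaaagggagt
Egfl7: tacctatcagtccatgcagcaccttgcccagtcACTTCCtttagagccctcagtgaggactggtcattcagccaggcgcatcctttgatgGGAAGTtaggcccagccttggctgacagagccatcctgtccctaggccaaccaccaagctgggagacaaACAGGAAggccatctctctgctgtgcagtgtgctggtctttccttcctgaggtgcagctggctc

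Within the full 250-base windows, Emcn held 2 matches to ACAGGAA and 1 to AACAAT. The upstream Egfl7 window held 2 matches to GGAAGT and 1 to ACAGGAA, the second Egfl7 window held 1 of each, and the third held none. The Tie1 window held 1 match to GGAAGT and 1 to ACAGGAA, and the Robo4 window held no match to any of the 4 motifs. Among 32851 windows of the same length, 19.7% held GGAAGT, 7.20% held ACAGGAA, 9.42% held AACAAT and 12.4% held TATAAA. A match is a description of the letters and not evidence of a bound site.

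The junction and adhesion genes were lower in both Nf1-deleted libraries. Cdh5 encodes VE-cadherin, the adherens junction protein of endothelium (ENSMUSG00000031871; chr8:104101625-104144511, plus strand), and was at 91.5 CPM (WT) and 93.6 CPM (PKO), against 40.1 in NF1 and 38.4 in PKO-NF1. The 4 libraries fell into an upper pair and a lower pair that did not overlap. Pecam1 encodes the adhesion molecule CD31, which platelets and leukocytes carry too (ENSMUSG00000020717; chr11:106654217-106750628, minus strand), and was at 135 CPM (WT) and 159 CPM (PKO), against 43.7 in NF1 and 115 in PKO-NF1. NF1 stood far below the other 3 libraries, and PKO-NF1 was closer to WT than to NF1. Esam, an immunoglobulin-family adhesion molecule of endothelial tight junctions and platelets (ENSMUSG00000001946; chr9:37528078-37538319, plus strand), was at 44.1 CPM (WT) and 59.1 CPM (PKO), against 19.8 in NF1 and 27.6 in PKO-NF1.

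Of the receptors, Tie1 encodes an orphan receptor tyrosine kinase that modulates angiopoietin signalling (ENSMUSG00000033191; chr4:118471191-118490061, minus strand). Its level was 53.2 CPM (WT) and 45.1 CPM (PKO), against 14.2 in NF1 and 17.6 in PKO-NF1, with a wide gap between the libraries labelled WT and PKO and those labelled NF1 and PKO-NF1. Robo4, the endothelial member of the roundabout receptors (ENSMUSG00000032125; chr9:37401897-37415115, plus strand), was at 27.9 CPM (WT) and 31.3 CPM (PKO), against 14.9 in NF1 and 11.2 in PKO-NF1. Emcn encodes endomucin, a sialomucin of capillary and venous endothelium that limits leukocyte contact (ENSMUSG00000054690; chr3:137341067-137432185, plus strand), and was at 28.8 CPM (WT) and 41.0 CPM (PKO), against 17.8 in NF1 and 54.7 in PKO-NF1. It was the only one of the 10 with its highest level in PKO-NF1, and the Nf1-deleted libraries lay on both sides of the intact ones.

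Among secreted and matrix proteins, Vwf (ENSMUSG00000001930; chr6:125546774-125686679, plus strand) was at 152 CPM (WT) and 187 CPM (PKO), against 29.2 in NF1 and 55.2 in PKO-NF1, a 6.40-fold range that was the widest of the 10. Mmrn2, which encodes multimerin 2, an endothelial matrix glycoprotein (ENSMUSG00000041445; chr14:34375465-34404287, plus strand), was at 36.3 CPM (WT) and 46.6 CPM (PKO), against 8.78 in NF1 and 22.5 in PKO-NF1. Egfl7, a secreted regulator of vessel tube formation (ENSMUSG00000026921; chr2:26580014-26593120, plus strand), was at 97.1 CPM (WT) and 141 CPM (PKO), against 74.2 in NF1 and 128 in PKO-NF1. Its 1.90-fold range was the narrowest, and its level in PKO-NF1 was above that in WT. Agpat2, a gene on the opposite strand, shares 64 exonic bases with Egfl7, so reads counted without strand cannot be told apart there. Agpat2 was at 118 CPM in WT and 160 in PKO, with 134 in NF1 and 266 in PKO-NF1, and its part in the Egfl7 level was not tested. The miRNA genes Mir126a and Mir126b lie within Egfl7, and the latter had at most 1 count in any library. Sox17 encodes a SOX transcription factor of arterial endothelium (ENSMUSG00000025902; chr1:4490931-4497354, minus strand) and was at 28.7 CPM (WT) and 20.2 CPM (PKO), against 19.7 in NF1 and 11.9 in PKO-NF1. WT was its highest library and PKO-NF1 its lowest, with PKO and NF1 nearly level between them. An unstranded count could also include Gm37587, which shares 804 exonic bases with Sox17 on the opposite strand.

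**Figure D1:**
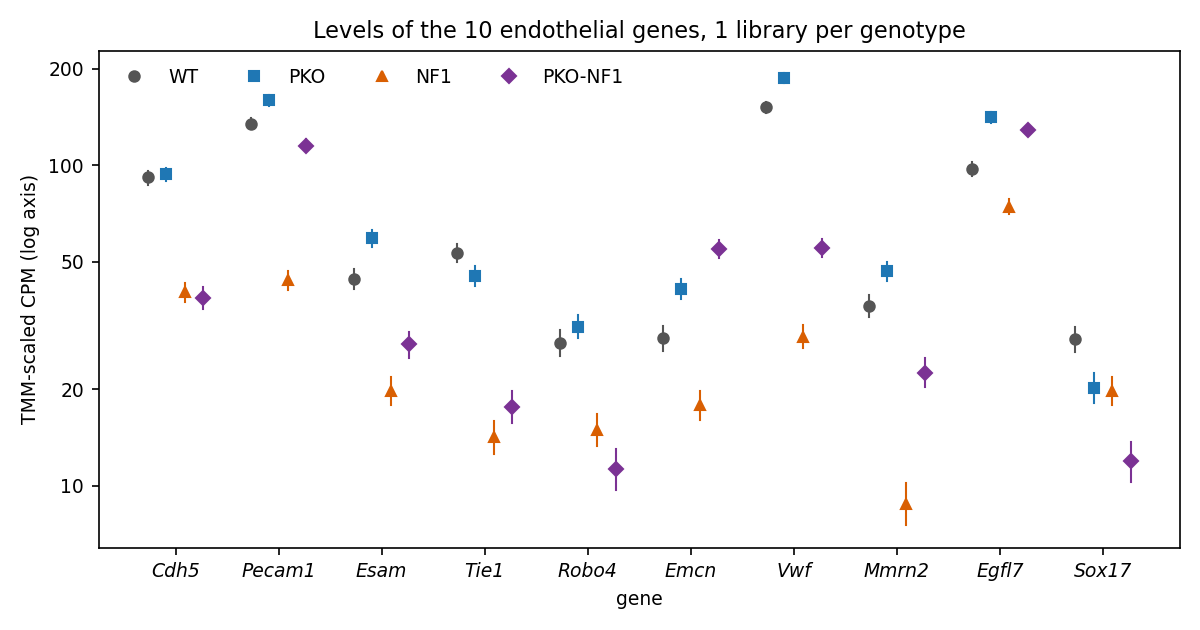
TMM-scaled CPM of the 10 genes (log axis) in each of the 4 libraries; bars are exact 95% Poisson counting intervals, and there is 1 library per genotype. NF1 and PKO-NF1 lie below WT and PKO for 8 genes, and not for Emcn and Egfl7.

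Set side by side per length (CPM per kilobase of merged GENCODE exons), Egfl7 was the most abundant of the 10 in every library, from 20.7 in NF1 to 39.3 in PKO. In WT the order went on with Cdh5 (21.8), Pecam1 (21.6), Esam (15.4), Tie1 (10.8), Vwf (9.44), Mmrn2 (9.15), Sox17 (6.01), Emcn (5.32) and Robo4 (5.25). Cdh5 and Pecam1, and Emcn and Robo4, were neighbours with nearly equal values. In NF1 Vwf came last, at 1.82, and in PKO-NF1 Emcn moved up to the third place, at 10.1. Summed over the 10 genes, the level was 694 CPM (WT) and 824 CPM (PKO), against 282 in NF1 and 483 in PKO-NF1. In 7 of the 10 genes PKO was the highest library, and in 7 NF1 was the lowest. The shares of all genes with these extremes were not computed. The place of PKO depended on scaling: by total counts the median log2 ratio of the 10 for PKO vs WT was -0.19.

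In both libraries labelled with the Nf1 deletion 8 of the 10 genes lay below both others, the exceptions being Emcn and Egfl7. The same was true of 20.5% of all 14700 genes. Lower levels in whole nerve cannot tell fewer endothelial cells apart from less RNA of these genes per cell.

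NF1 set against WT compares the library labelled with the Dhh Cre deletion of Nf1 with the unmutated one. All 10 genes were lower in NF1, each with an interval that excluded a ratio of 1. Among all 14700 genes the interval lay below 1 for 5177 and above 1 for 5034. Genes counted as lower or higher where the ratio was 2-fold or more and its interval left out 1. By that rule 6 of the 10 were lower and none higher, beside 6.31% lower and 10.4% higher among all genes. Vwf was 5.20-fold lower (4.75 to 5.70), Mmrn2 4.14-fold (3.49 to 4.93), Tie1 3.76-fold (3.28 to 4.31) and Pecam1 3.08-fold (2.84 to 3.33). Cdh5 and Esam followed at 2.28-fold (2.09 to 2.49) and 2.23-fold (1.97 to 2.52). The 4 under 2-fold were Robo4 (1.87-fold, 1.61 to 2.17), Emcn (1.62-fold, 1.41 to 1.86), Sox17 (1.46-fold, 1.27 to 1.67) and Egfl7 (1.31-fold, 1.22 to 1.40). The median log2 ratio of the 10 was -1.17, beside 0.00 (-0.000756) for all genes tested, and the standard deviation among the 10 was 0.68. Skeletal muscle RNA in the NF1 library moved with this comparison. So did sex-linked RNA, with Xist at 10304 counts in WT and 39699 in NF1, and Ddx3y at 813 and 0. The part of either in these ratios was not tested. Scaling factors computed without muscle, ribosomal protein, adipocyte and erythroid genes left the count at 6, which bears on the scaling only.

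PKO-NF1 set against PKO puts the same question in libraries labelled P2RY14-/-, and no library is common to both Nf1 pairs. Again 6 of the 10 were lower and none higher, beside 9.7% lower and 5.2% higher among all genes, and the median log2 ratio was -1.07. Vwf led once more, at 3.39-fold lower (3.15 to 3.65). Robo4 came next at 2.79-fold (2.36 to 3.31), then Tie1 at 2.56-fold (2.24 to 2.94), Cdh5 at 2.44-fold (2.22 to 2.67), Esam at 2.14-fold (1.92 to 2.40) and Mmrn2 at 2.07-fold (1.83 to 2.35). Sox17 was 1.70-fold lower (1.42 to 2.03), Pecam1 1.38-fold lower (1.30 to 1.47) and Egfl7 1.10-fold lower (1.04 to 1.16). Emcn went the other way and was 1.33-fold higher in PKO-NF1 (1.21 to 1.47). The standard deviation among the 10 log2 ratios was 0.67. Sex-linked RNA differed in this pair as well, with Xist at 4948 counts in PKO and 9 in PKO-NF1, and Ddx3y at 396 and 842. Its part in these ratios was not tested. With the trend over transcript length and GC content removed, 2 of the 10 (Cdh5 and Esam) were still 2-fold lower, beside 5.01% of all genes, and the log2 ratio of Emcn turned to -0.18.

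**Figure D2:**
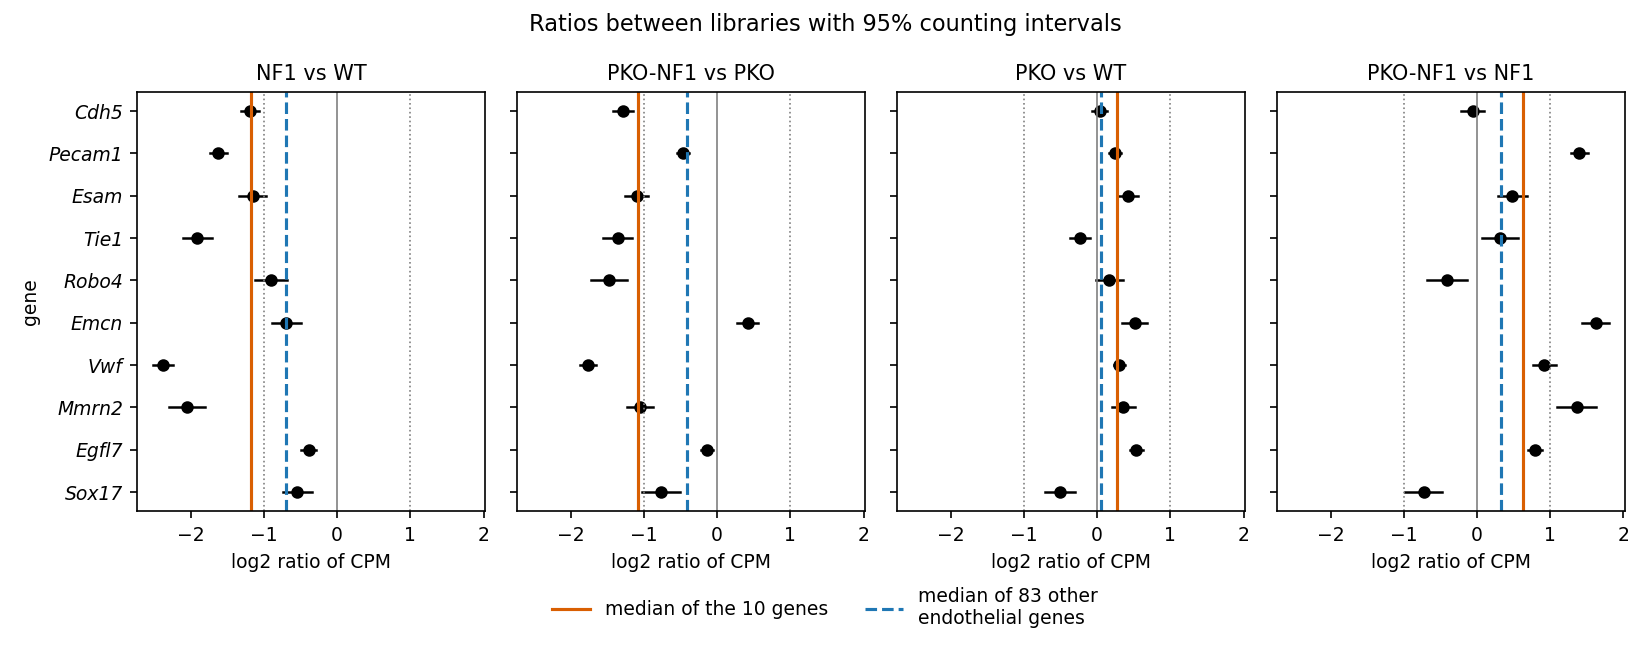
log2 ratio of CPM of the 10 genes in the 4 comparisons, with exact 95% counting intervals as bars; dotted lines mark 2-fold, the solid coloured line the median of the 10 and the dashed line the median of 83 other endothelial genes. All 10 genes lie to the left of 0 in NF1 vs WT, as do 9 of them, all except Emcn, in PKO-NF1 vs PKO.

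The 5 genes counted as lower in both Nf1 pairs were Vwf, Tie1, Cdh5, Mmrn2 and Esam, against 2.6% of all genes. With the length and GC trend removed, 1 of the 10 (Esam, log2 ratios -1.25 and -1.11) was 2-fold lower in both, against 0.928% of all genes. Pecam1 was lower by 2-fold in the NF1 pair only and Robo4 in the PKO-NF1 pair only, and Emcn, Egfl7 and Sox17 were in neither. The ratio of PKO-NF1 vs PKO to NF1 vs WT, on the log2 scale, was 1.15 for Pecam1 (counting interval 1.01 to 1.29), 1.11 for Emcn (0.87 to 1.35) and 1.00 for Mmrn2 (0.70 to 1.30). It was -0.58 for Robo4 (-0.90 to -0.26). For Vwf it was 0.62, for Tie1 0.55 and for Egfl7 0.25, with intervals above 0. Counting intervals held 0 for Cdh5 (-0.09), Esam (0.06) and Sox17 (-0.22). How often such an interval leaves out 0 among all genes was not computed. With 1 library per genotype this difference between the pairs could not be tested against a spread between animals. When PKO-NF1 was set against WT, which leaves out both the muscle-rich NF1 library and the PKO library, 5 of the 10 were at least 2-fold lower (Vwf, Tie1, Cdh5, Robo4 and Sox17) beside 17.5% of all genes, and the median log2 ratio was -0.97. Emcn and Egfl7 were then above WT, with log2 ratios of 0.93 and 0.40.

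**Figure D3:**
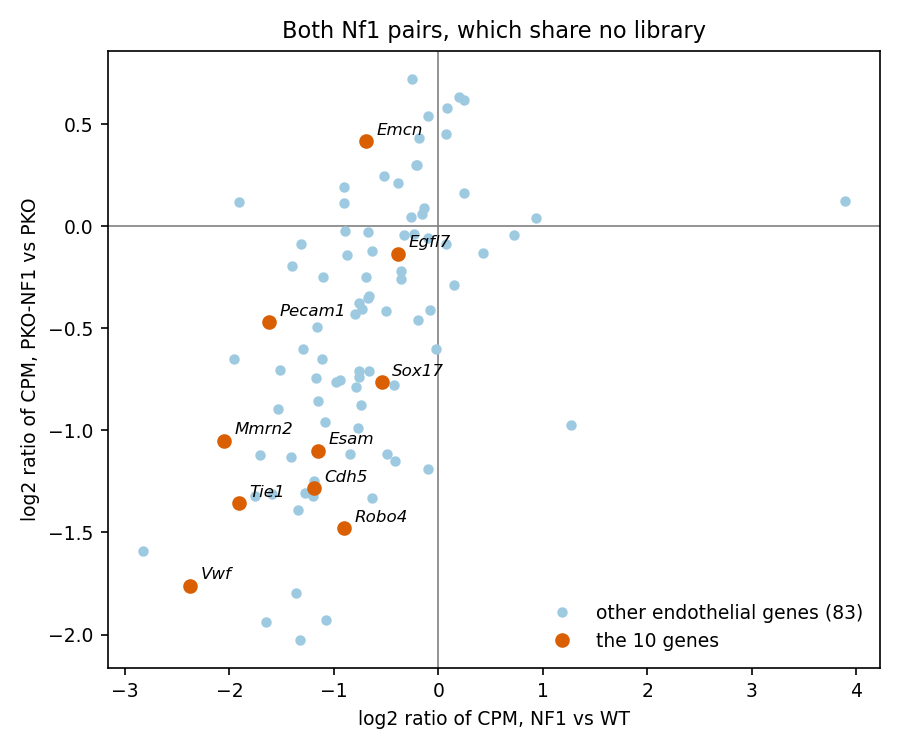
log2 ratio of CPM in NF1 vs WT (horizontal) against PKO-NF1 vs PKO (vertical) for the 10 genes and 83 other endothelial genes, 1 point per gene. Vwf, at -2.38 and -1.76, is the member farthest to the lower left, and Emcn, at -0.69 and 0.42, is the only member above the horizontal zero line.

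An additive model over all 4 libraries (edgeR quasi-likelihood test, a term for Nf1 and a term for P2ry14) has 1 residual degree of freedom, the interaction, so that each p-value measures a term by how far the libraries depart from additive effects, with no spread among animals in it. None of the 10 genes, and 0.0% of the 14105 tested, passed an adjusted p (Benjamini-Hochberg) of 0.05 for Nf1. At unadjusted p under 0.05 it had 8 of the 10, all with a negative change, beside 20.9% of all genes; the DESeq2 Wald test called 4 of the 10 at adjusted p under 0.05 (Vwf, Tie1, Cdh5 and Mmrn2), beside 2.01% of all genes, and edgeR on total counts called 6, beside 7.73%. The fitted log2 change for Nf1 was -2.07 for Vwf (SE 0.29, edgeR adjusted p = 0.168), -1.63 for Tie1 (SE 0.25, edgeR adjusted p = 0.168) and -1.24 for Cdh5 (SE 0.22, edgeR adjusted p = 0.168). For Emcn it was -0.13 (SE 0.32, edgeR adjusted p = 0.832) and for Egfl7 -0.26 (SE 0.25, edgeR adjusted p = 0.563). The P2ry14 term called 0 of the 10 and 0.0496% of all genes; at unadjusted p under 0.05 it had 4 of the 10, beside 25.2% of all genes, and the DESeq2 Wald test also called 0 (5.1% of all genes). Scaled by total counts, edgeR called 1 of the 10 at this term, beside 18.6% of all genes.

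PKO set against WT, which shares the WT library with the first comparison, gave smaller ratios. Nf1 itself was 1.78-fold lower in PKO than in WT (1.62 to 1.95), and its part in these ratios was not tested. None of the 10 reached 2-fold in either direction, beside 5.22% lower and 10% higher among all genes, and the median log2 ratio was 0.27 with a standard deviation of 0.34. Egfl7 was 1.45-fold higher (1.36 to 1.55), Emcn 1.43-fold higher (1.27 to 1.60) and Esam 1.34-fold higher (1.22 to 1.47). Sox17 was 1.42-fold lower (1.24 to 1.63) and Tie1 1.18-fold lower (1.07 to 1.30), while the intervals of Cdh5 and Robo4 held 1. The upward side of this median depended on scaling: by total counts alone it was -0.19, in a library where ribosomal protein genes took 15.7% of counts against 4.06% in WT.

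On the Nf1-deleted background, PKO-NF1 against NF1, 3 of the 10 were higher and none lower by the 2-fold rule, beside 7.9% higher and 13.8% lower among all genes. Emcn was 3.07-fold higher (2.71 to 3.49), Pecam1 2.63-fold (2.43 to 2.85) and Mmrn2 2.56-fold (2.14 to 3.09). Vwf was 1.89-fold higher (1.70 to 2.10) and Egfl7 1.73-fold higher (1.62 to 1.85). In the other direction Sox17 was 1.65-fold lower (1.39 to 1.98) and Robo4 1.33-fold lower (1.10 to 1.61), and the interval of Cdh5 held 1 (1.04-fold lower, 0.938 to 1.16). The spread among the 10 was the widest of the 4 comparisons, with a standard deviation of 0.79 and a 5.08-fold distance from Sox17 to Emcn. In both P2ry14-null libraries only Emcn and Egfl7 lay above both others, 2 of the 10 against 23.4% of all genes, and none lay below both others, against 24.4%. At a 1.5-fold threshold 5 of the 10 were higher (20% of all genes) and 1 lower (24.1%) in PKO-NF1 vs NF1, and with the trend over transcript length and GC content removed 4 were 2-fold higher (5.65%). NF1, with its muscle RNA, is the denominator of this comparison. This pair also differed in sex-linked RNA, with Xist at 39699 counts in NF1 and 9 in PKO-NF1, and Ddx3y at 0 and 842. With 1 library each, these differences cannot be told apart from P2ry14 status, and their part in the ratios was not tested.

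Shares of the summed counts of the 10 genes do not depend on how libraries are scaled to each other. Vwf took 21.9% (exact Clopper-Pearson 95% interval 21.1 to 22.6) of these counts in WT and 22.7% (22.0 to 23.4) in PKO, but 10.3% (9.54 to 11.2) in NF1 and 11.4% (10.7 to 12.2) in PKO-NF1. The share of Egfl7 went the opposite way, from 13.99% (13.4 to 14.6) in WT and 17.1% (16.5 to 17.7) in PKO to 26.3% (25.1 to 27.5) in NF1 and 26.6% (25.6 to 27.6) in PKO-NF1. In counts, Vwf exceeded Egfl7 1.56 to 1 in WT and 1.33 to 1 in PKO, and the ratio was 0.393 in NF1 and 0.430 in PKO-NF1. Shares and ratios of genes still hold the trend over transcript length and GC content. With it removed, the log2 change of Vwf relative to Egfl7 went from -1.99 to -1.37 for NF1 vs WT and from -1.63 to -0.86 for PKO-NF1 vs PKO. Emcn made up 4.15% in WT, 4.98% in PKO and 6.31% in NF1, and 11.3% in PKO-NF1. The share of Sox17 was 4.13% in WT and 6.97% in NF1 against 2.45% in PKO and 2.47% in PKO-NF1. In CPM it was not split by P2ry14 status, at 20.2 in PKO and 19.7 in NF1. How often shares split in this way among other genes was not computed. Esam kept the narrowest span of shares, from 5.71% to 7.17%.

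**Figure D4:**
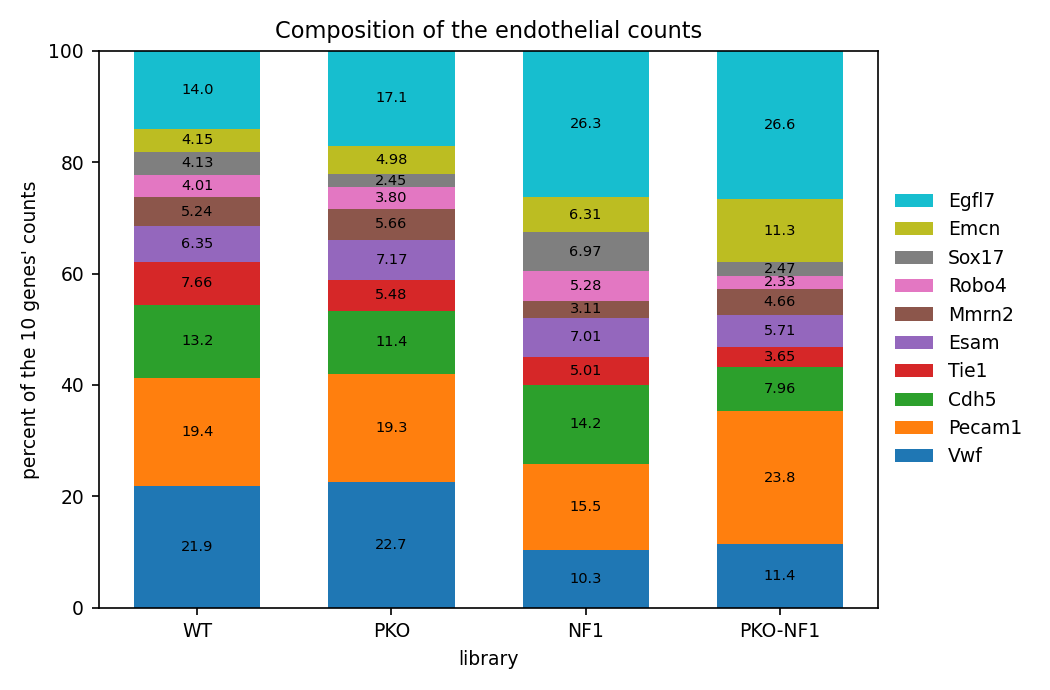
Percent of the summed counts of the 10 genes that each gene took, by library (stacked bars, 1 library per genotype). Vwf takes 21.9% and 22.7% in WT and PKO but 10.3% and 11.4% in NF1 and PKO-NF1, and Egfl7 the reverse, at 13.99% and 17.1% against 26.3% and 26.6%.

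Among the 45 pairs of these genes, the count ratio of 10 pairs stayed within 2-fold over the 4 libraries. Cdh5 to Robo4 was the steadiest, between 2.69 and 3.42, followed by Cdh5 to Esam, between 1.39 and 2.07, and Pecam1 to Mmrn2, between 3.42 and 5.11. A further 8 pairs varied by more than 4-fold, up to 6.25-fold for Vwf to Sox17. The ratio of Vwf to Sox17 ran from 1.48 in NF1 to 9.26 in PKO.

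To set single members against other endothelial genes, each ratio was compared with the median of 83 of these. They were listed as transcription factors, receptors and surface genes, and junction, signalling and enzyme genes. Of 84 listed, 83 were found, and Tal1 stands in 2 of these lists. Some of the 83 are expressed by other cells too, such as Cd34 by fibroblasts and Mef2c by skeletal muscle, so their median is not a measure of vessel content. That median was -0.69 for NF1 vs WT and -0.41 for PKO-NF1 vs PKO. A member was called apart when it was at least 1.5-fold from this median and its counting interval left the median out. In NF1 vs WT 4 of the 10 lay apart on the lower side (Vwf, Tie1, Pecam1 and Mmrn2) and none on the upper, against 16 and 17 of the 83. Vwf was 3.21-fold below the median of the 83, while Emcn stood on it, with a difference of 0.00 (0.00121) in log2, and Egfl7 was 1.24-fold above it. In PKO-NF1 vs PKO 6 lay apart below (Vwf, Tie1, Cdh5, Robo4, Mmrn2 and Esam) and Emcn above, against 18 and 12 of the 83. Vwf was 2.55-fold below and Emcn 1.77-fold above. As scaled, Vwf, Tie1 and Mmrn2 were apart on the lower side in both Nf1 pairs. With the trend over transcript length and GC content removed, this no longer held for any of these 3 in PKO-NF1 vs PKO. There Cdh5, Robo4 and Esam were apart below and none above, against 12 and 3 of the 83. In NF1 vs WT, Esam then joined the 4 that lay apart below, against 14 of the 83, and none lay apart above, against 8. None of the 10 was apart in PKO vs WT as scaled (3 of the 83 below and 7 above). Vwf was apart above there with the trend removed (6 of the 83). In PKO-NF1 vs NF1 Robo4 and Sox17 were apart below, and Vwf, Pecam1, Mmrn2 and Emcn above, against 21 and 14 of the 83. With the trend removed Sox17 alone was apart below and the same 4 above, against 17 and 10 of the 83.

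The 83 other endothelial genes had 26 lower and 2 higher in NF1 relative to WT, beside 6.31% lower and 10.4% higher among all genes. In PKO-NF1 relative to PKO 18 were lower and none higher (9.7% and 5.2% of all genes), and 13 were lower in both (2.6% of all genes). With the length and GC trend removed, 14 of the 83 were lower and 1 higher in the first pair, and 7 of the 83 were lower in the other. Among all genes 4.48% and 5.01% were then lower. The lower counts then went, for the first and the other pair, to 3 and 1 among transcription factors, to 8 and 3 among receptors and surface genes, and to 3 and 3 among junction, signalling and enzyme genes. The counts that follow are as scaled. Of 25 endothelial transcription factors, 6 were lower and 1 higher in NF1. Erg, an ETS factor that maintains endothelial identity, was 3.89-fold lower (2.93 to 5.22), and Mef2c, which skeletal muscle also expresses, was 14.8-fold higher (13.5 to 16.3). In PKO-NF1 vs PKO 3 transcription factors were lower, with Epas1 (HIF-2 alpha) 2.62-fold lower (2.46 to 2.80) and the blood and endothelial cofactor Lmo2 1.65-fold higher (1.51 to 1.80) at the extremes. Of 30 receptors and surface genes, 12 were lower in the first Nf1 pair and 8 in the other, with none higher. Plvap, of the diaphragms of fenestrated endothelium, was at the low end in NF1 (7.07-fold lower, 6.11 to 8.21), and Flt4, the VEGF-C receptor, in PKO-NF1 (3.84-fold lower, 3.13 to 4.75). Calcrl, the receptor for adrenomedullin, was at the upper end in both pairs, 1.19-fold higher (1.06 to 1.34) and 1.53-fold higher (1.34 to 1.75). Of 29 junction, signalling and enzyme genes, 8 were lower and 1 higher in the first pair and 7 lower in the other. Nos3, endothelial nitric oxide synthase, was 3.27-fold lower in NF1 (2.84 to 3.78), and the scaffold gene Shank3 4.07-fold lower in PKO-NF1 (3.42 to 4.88). At the upper end were Rasgrp3, a RAS exchange factor, 1.91-fold higher in NF1 (1.64 to 2.24), and Gimap6, 1.55-fold higher in PKO-NF1 (1.40 to 1.72).

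By vessel type, again as scaled, 7 of 12 venous genes were lower in NF1 vs WT (median -1.35) but 3 of 12, with 1 higher, in PKO-NF1 vs PKO (median -0.24). Lrg1 marked the low end in the first pair (6.20-fold lower, 5.33 to 7.25), and the chemokine-binding Ackr1 in the other (2.68-fold lower, 2.28 to 3.16). The venous factor Nr2f2 was 1.05-fold higher (1.00 to 1.11) in NF1, and Tmem252 was 2.09-fold higher in PKO-NF1 (1.58 to 2.78). Of 14 arterial genes 2 were lower in NF1 and 3 in PKO-NF1 (medians -0.50 and -0.11), and Sema3g was at the low end in both, 3.17-fold lower (2.89 to 3.48) and 2.90-fold lower (2.60 to 3.24). At the upper end stood Mgp (1.18-fold higher, 1.12 to 1.24) and Efnb2 (1.25-fold higher, 1.10 to 1.43). The 16 capillary and blood-nerve barrier genes had 4 and 3 lower (medians -0.63 and -0.14), with Mfsd2a, which limits transcytosis, 5.37-fold lower in NF1 (4.46 to 6.50) and Spock2 4.67-fold lower in PKO-NF1 (4.14 to 5.28). The transferrin receptor gene Tfrc was at the upper end in NF1 (1.87-fold higher, 1.67 to 2.09), and Abcg2, an efflux transporter, in PKO-NF1 (1.56-fold higher, 1.45 to 1.68). Of 8 measured lymphatic genes 2 were lower in each pair and 1 was higher in PKO-NF1 (medians -0.16 and -0.02). With the length and GC trend removed, the lower counts in NF1 vs WT were 4 arterial, 6 venous, 6 capillary and barrier and 3 lymphatic genes (4.48% of all genes). In PKO-NF1 vs PKO they were 2, 2, 2 and 3 in the same order (5.01% of all genes). There 1 venous and 2 lymphatic genes were higher. The medians in that pair were then -0.26, -0.38, -0.47 and -0.49. Prox1, the defining lymphatic factor, was between 0.732 and 2.53 CPM in all libraries.

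Over all genes the ratios varied with transcript length and GC content, and the members lie at different points of that trend. Vwf, whose longest transcript of 8834 bases exceeds 96.2% of the genes tested and whose GC content is 56.5%, had a fitted trend (log2) of -0.66 for NF1 vs WT and -0.95 for PKO-NF1 vs PKO. Emcn, at 40.7% GC, lower than all but 7.84% of genes, had a trend of 0.33 and 0.59. With the trend removed, 6 of the 10 were still at least 2-fold lower in NF1 vs WT (4.48% of all genes), with Emcn (log2 ratio -1.02) in and Cdh5 (-0.90) out. In PKO-NF1 vs PKO the 2 genes still 2-fold lower were Cdh5 (-1.09) and Esam (-1.11). Vwf was then at -1.72 and -0.81, and Emcn at -1.02 and -0.18. Egfl7 stayed the member closest to no change in that pair, at 0.05, and the standard deviation among the 10 was reduced from 0.67 to 0.38. The medians of the 10 with the trend removed were -1.14 and -0.79, beside -0.45 and -0.29 for the 83 other endothelial genes.

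**Figure D5:**
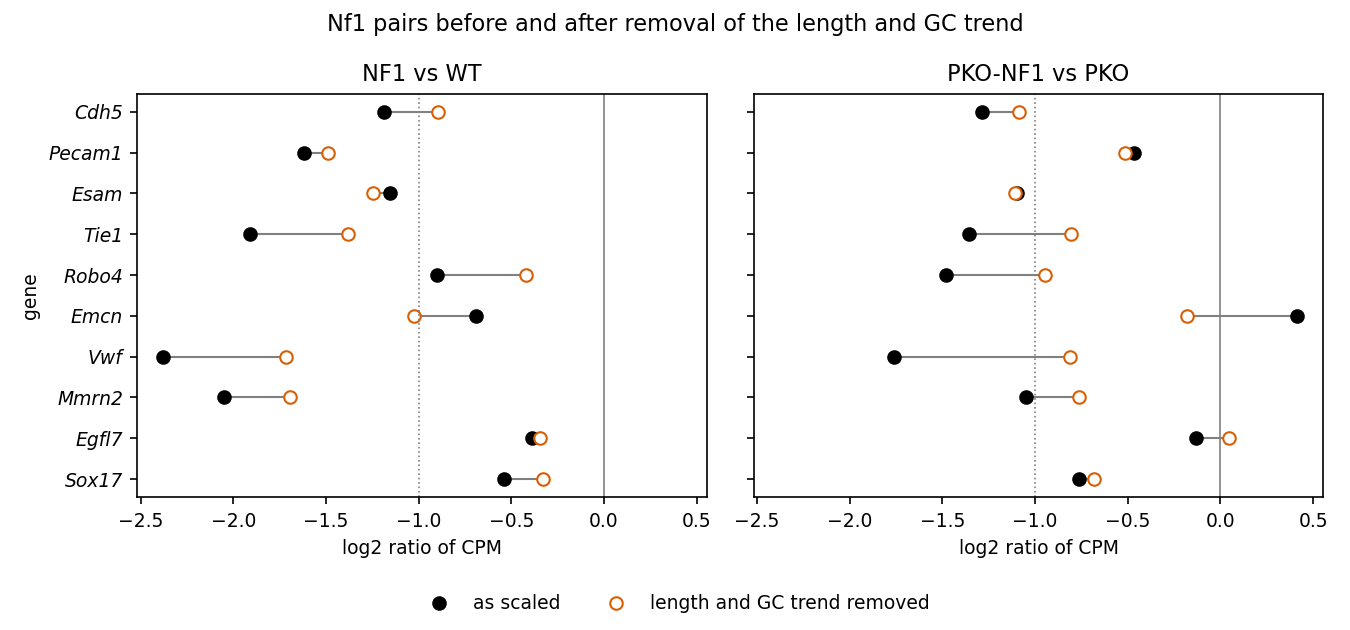
log2 ratio of CPM of the 10 genes in both Nf1 pairs, as scaled (filled) and with the trend over transcript length and GC content removed (open); the dotted line marks 2-fold lower. In PKO-NF1 vs PKO, Vwf moves from -1.76 to -0.81 and Emcn from 0.42 to -0.18.

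Markers of other cells also differed between libraries, and not all in the direction of the 10 genes. Among all genes 6.31% were lower and 10.4% higher in NF1 vs WT, and 9.7% and 5.2% in PKO-NF1 vs PKO. The 18 pericyte and smooth muscle genes, of which Des is also a muscle gene, had 3 lower and 2 higher in NF1 vs WT (median -0.45) and 2 lower in PKO-NF1 vs PKO (median -0.27). Their summed level was 966, 1430, 2343 and 1217 CPM in WT, PKO, NF1 and PKO-NF1. The 16 Schwann cell genes had 6 lower and none higher in NF1 vs WT (median -0.83) and 5 lower and 1 higher in PKO-NF1 vs PKO (median -0.30), with summed levels of 23777, 33590, 8567 and 18965 CPM in the same order. Adipocyte genes, which mark the fat around the nerve, had 9 of 14 lower and 1 higher for NF1 vs WT (median -1.23), and 5 lower and 1 higher for PKO-NF1 vs PKO (median -0.50). Of 16 platelet and megakaryocyte genes, 7 reached 1 CPM, with 2 lower for NF1 vs WT and 4 higher for PKO-NF1 vs PKO. The summed level of the list was 128, 205, 104 and 193 CPM. Of this, Pf4 took 44.2 CPM (WT) and 47.6 CPM (NF1), against 153 in PKO and 130 in PKO-NF1. The platelet glycoprotein gene Gp9, at low levels, was also higher in PKO (0.956 CPM) and PKO-NF1 (2.38) than in WT (0.118) and NF1 (0.101). Ppbp and Itga2b did not follow this split. Ppbp peaked in PKO-NF1 at 8.24 CPM, with 1.18 for WT, 0.562 for PKO and 0.254 for NF1. Itga2b was at 15.4 CPM (WT) and 17.8 CPM (PKO), against 10.1 in NF1 and 12.8 in PKO-NF1. None of the 4 defining platelet markers was at 0 in any library. Among 15 leukocyte genes, 13 of them measured, none was lower in either Nf1 pair, 2 were higher in NF1 and 1 in PKO-NF1 (medians -0.01 and 0.34). The 15 perineurial and fibroblast genes had 2 lower in NF1 vs WT (median -0.61) and 1 in PKO-NF1 vs PKO (median -0.45), and none higher. With the length and GC trend removed their medians were -0.22 and -0.25. Those of the Schwann cell genes were then -0.50 and -0.46, and those of the pericyte and smooth muscle genes -0.16 and -0.17. Of 9 erythroid genes 5 were measured, with 2 lower and 1 higher in NF1 vs WT (median -1.71) and 4 higher in PKO-NF1 vs PKO (median 2.75). The part of these cells in the levels of the 10 genes was not tested.

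The profile of the 10 genes over the 4 libraries, taken as the median of their log2 CPM centred on each gene's own mean, was 0.55 in WT and 0.66 in PKO, against -0.84 in NF1 and -0.45 in PKO-NF1. Among 11871 other genes at 5 CPM or more on average, the 8 nearest by Euclidean distance over the 4 libraries were Clstn1 (distance 0.0714), Secisbp2l (0.0718), Mrgpre (0.0857), Limch1 (0.102), Podn (0.103), Slit3 (0.113), Scd2 (0.114) and Zfp503 (0.129). None of these 8 belonged to the lists of other endothelial genes. Clstn1 was at 356 CPM (WT) and 403 CPM (PKO), against 138 in NF1 and 177 in PKO-NF1. Of the 10 themselves, Esam was nearest to the shared profile (distance 0.259, with 40 other genes nearer) and Emcn farthest (1.44, with 5625 nearer).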

How the data were processed

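RNA was extracted with Trizol from frozen sciatic nerve and made into libraries with a TruSeq RNA kit, per the labels' protocols. The values deposited by the authors are raw counts per gene symbol in 1 table. FastQC 0.11.7, HISAT2 2.0.5, featureCounts 1.5.2 and mm10 are named in the submitters' processing notes; the annotation, strand setting and treatment of multi-mapping reads are not stated there. Counts were scaled with edgeR 4.0.16 TMM factors (WT 1.20, PKO 0.873, NF1 1.03, PKO-NF1 0.922). GENCODE M21 (GRCm38) gave transcript lengths, GC content and coordinates, and matched 98.4% of symbols. The trend over length and GC was fitted as natural splines (4 degrees of freedom each) to log2(CPM + 0.5) over 14547 genes. The additive model used edgeR glmQLFit and glmQLFTest, with DESeq2 1.42.0 as an alternative, on genes at 1 CPM in at least 2 libraries. The scripts were tested on simulated data. The members and lists were chosen with earlier results of these data known. Genes named are the 10 members, the 2 targeted genes, the lowest and highest gene of each endothelial list at 5 CPM or more, cell type markers, and the 8 nearest profiles.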

Additional observations from a re-analysis of the deposited data

Results flagged for a closer look

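Emcn had a log2 ratio of -0.69 for NF1 vs WT but 0.42 for PKO-NF1 vs PKO. The 2 Nf1 pairs went in opposite directions, each with a counting interval that left out 0; the difference was not tested, and with the length and GC trend removed the second value was -0.18. Tie1 had a log2 ratio of -0.24 in PKO vs WT and 0.32 in PKO-NF1 vs NF1, so that the P2ry14 pairs went in opposite directions; the difference was not tested, and with the trend removed these values were 0.03 and 0.75.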

How the results depend on the processing

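No paired analysis was possible because each genotype had 1 library. With the length and GC trend removed, 2 members in place of 6 were lower in PKO-NF1 vs PKO (median -0.79), and the SD among members was 0.54 in NF1 vs WT, 0.38 in PKO-NF1 vs PKO, 0.36 in PKO vs WT and 0.83 in PKO-NF1 vs NF1. Scaled by total counts alone, the median was -1.39 in NF1 vs WT, -0.19 in PKO vs WT (a reversed sign) and 0.47 in PKO-NF1 vs NF1. By total counts the additive edgeR model called 6 members at the Nf1 term (7.73% of all genes) and 1 at the P2ry14 term (18.6%), and the DESeq2 Wald test called 4 at the Nf1 term. The mean in place of the median gave -0.90 in PKO-NF1 vs PKO and 0.18 in PKO vs WT, and summed CPM gave -0.77 in PKO-NF1 vs PKO. A 1.5-fold threshold gave 5 higher (20% of all genes) and 1 lower (24.1%) in PKO-NF1 vs NF1. With PKO-NF1 in place of NF1, an alternative chosen after seeing the data, the median against WT was -0.97. With 1 term in the edgeR model and each library left out in turn, 0 members were called at either term. Of 106 alternatives for the member counts, medians, SDs and model calls, 18 differed and are given here. The other 88 kept medians and SDs near the main value and counts equal or close to it. Scaling the libraries otherwise could not change an SD, since a factor shifts all log2 ratios equally. Model calls were compared by number and not by direction. The median fitted P2ry14 change with 1 term was 0.43. With 1 library left out it was 1.14 (WT), -0.46 (PKO), -0.20 (NF1) and 0.77 (PKO-NF1). Among these 88, 7 counts of members differed by at most 2, and an equal count can hold other genes (Emcn in and Cdh5 out for NF1 vs WT with the trend removed). The cause of the changes was not tested. With 1 library per genotype no spread between animals could be measured.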
